A study of Mus musculus with 21 samples.

Results

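Skin and epididymal fat of wild-type mice kept on a high-fat diet were compared across all genes on 6 single-colour Agilent mouse arrays, 3 of skin and 3 of fat, out of 21 arrays in the series. Each mouse was a male on the C57Bl6/J strain background that ate the high-fat diet from 5 to 44 weeks of age and was 45 weeks old. The arrays were taken by their labels: skin wild type 1, 2 and 3, and fat wild type 1, 3 and 4. The scanner file deposited for fat wild type 2 was left out because it did not match its own column in the authors' value table (r = 0.779, against 0.972 to 0.992 for the other 20 arrays). Over the probes of the genes tested below, that file correlated at 0.902 to 0.928 with the skin arrays and at 0.658 to 0.693 with the other fat arrays. No lean group was used, so every value here describes tissues of mice on one diet. JNK1 knockout mice of the same strain background, sex, age and diet gave a further 4 skin and 4 fat arrays, which are used below as a second set of arrays for the same tissue contrast. The labels do not name the skin site, the layers taken, or which arrays came from one mouse, so p-values measure only the spread between these samples, which may be technical.

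Skin is a layered organ. Keratinocytes of the epidermis divide in a basal layer, move outward, and fill with keratins and cornified envelope proteins before they are shed, while hair follicles and sebaceous glands are set into a dermis of collagen with a muscle sheet and fat beneath it in the mouse. Epididymal fat is a visceral depot that lies beside the epididymis and is wrapped in mesothelium. Its adipocytes store triglyceride, and in obesity it is known to gather macrophages that take up lipid. A whole piece of tissue mixes all these cells, so fewer cells of a type and less RNA per cell cannot be told apart.

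Levels are log2 signal minus the 75th percentile of that array, so that 0 is the 75th percentile of an array and each unit is a doubling. A probe counts as detected where the scanner software marked it well above background. Of 27558 gene names on the array, 14570 were detected on at least 3 of the 6 arrays and were tested. Fat arrays were the brighter set, with a 75th percentile of 9.53, 8.89 and 9.34 in log2 signal against 7.36, 7.97 and 7.61 for skin, and their detected share of probes was 56.5%, 46.7% and 55.5% against 39.5%, 45.9% and 47.0%. Brightness therefore moves with tissue, and its part in the differences was not tested. Skin arrays correlated with each other at 0.951 to 0.989, fat arrays with each other at 0.977 to 0.981, and skin with fat arrays at 0.656 to 0.752. The number of arrays limits the precision of every value.

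More than 1 in every 2 genes tested differed between the tissues, and the largest differences lay on the skin side. With limma and a Benjamini-Hochberg adjusted p below 0.05, 3819 genes (26.2% of those tested) were higher in skin and 4160 (28.6%) were higher in fat. At 2-fold or more these were 2928 and 2787 genes. At 100-fold or more, with genes dark in 1 tissue set at their lower bound, there were 202 on the skin side and 3 on the fat side. No fat array overlapped any skin array for 4719 genes with skin above (32.4%) and 5441 with fat above (37.3%). The median gene differed by -0.12 (skin minus fat, log2), the median SD between arrays was 0.35 in skin and 0.18 in fat, and changes of that size depend on how arrays are scaled. Skin wild type 2 shared a slide with fat wild type 4, and skin wild type 3 with fat wild type 1 and 3. Within the first slide 3818 of the 3819 genes called higher in skin kept that sign, as did 4158 of 4160 on the fat side. Within the second slide every called gene kept its sign. The same arrays made the calls, so this agreement was nearly fixed in advance and is no test of slide.

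**Figure D1:**
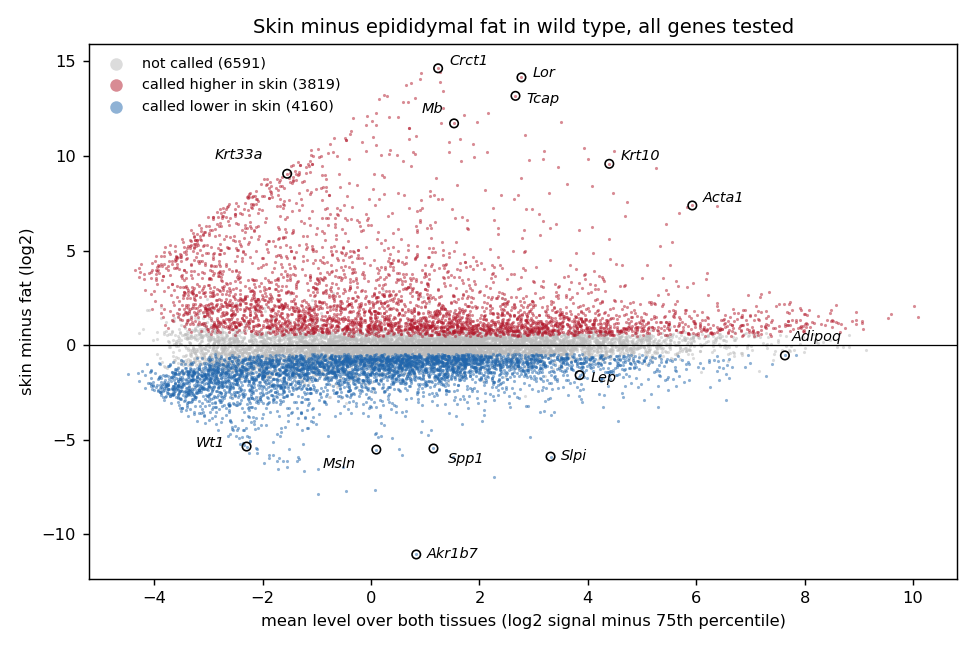
Difference between skin and epididymal fat (log2, y axis) against the mean level of both tissues (log2 signal minus the 75th percentile, x axis) for the 14570 genes tested in wild type, with 3819 genes called higher in skin in red, 4160 called lower in blue and the rest in grey. Red points reach above 14 (Crct1 14.64, Lor 14.15), whereas the lowest blue point is Akr1b7 at -11.06 and only 3 others lie below -7. Plotted differences are measured ones, also where 1 tissue was not above background.

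The markers that define each tissue were checked first. Krt5, the keratin of basal keratinocytes, stood at 9.74, 9.16 and 9.28 on skin arrays 1, 2 and 3 and at -0.62, -1.57 and -4.98 on fat arrays 1, 3 and 4, a difference of 11.78 ± 1.04 (log2, SE, limma adjusted p = 2.14e-04). Its partner Krt14 stood at 8.60, 7.33 and 7.63 in skin and -2.89, -4.26 and -4.72 in fat (difference 11.81, adjusted p = 1.54e-05). Trp63, the transcription factor of stratified epithelium, stood at 3.35, 2.70 and 2.91 and -2.66, -3.78 and -6.32. Every skin array exceeded every fat array by more than 5 log2 units for these 3 genes, and fat wild type 4 was the lowest fat array for each. Without fat wild type 1 the differences of Krt5 and Trp63 were 12.66 and 8.04, and without fat wild type 4 they were 10.48 and 6.21. Krt10, the keratin that replaces Krt14 as cells leave the basal layer, stood at 9.28, 9.13 and 9.15 in skin and -0.30, -0.49 and -0.40 in fat, and had 1 of the 5 smallest p-values on the skin side (9.59 ± 0.16, adjusted p = 1.87e-06). Lor, which encodes the main protein of the cornified envelope, stood at 10.12, 9.66 and 9.78 and -3.64, -5.0 and -4.26 (difference 14.15, adjusted p = 2.77e-06), with 1 of 3 fat arrays above background.

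Adipocyte markers did not separate the tissues in the same way. Fabp4, the fatty acid binding protein of adipocytes, stood at 8.55, 9.34 and 9.15 in skin and 9.15, 9.41 and 9.17 in fat, and the groups overlapped (difference -0.23 ± 0.24, adjusted p = 0.445). With all 20 arrays and slide as a block the difference was 0.00569 (log2, adjusted p = 0.989). Plin1, which coats the lipid droplet, stood at 6.27, 5.76 and 5.71 and 6.30, 6.02 and 6.38 (difference -0.32, adjusted p = 0.254). Quantile normalization called both lower in skin, and Plin1 was also called lower without skin wild type 1. Adipoq, which encodes adiponectin, stood at 7.28, 7.60 and 7.22 in skin and 7.97, 7.83 and 7.92 in fat. Its groups did not overlap, but the difference was -0.54 ± 0.18 with an adjusted p of 0.0392, and that call was lost without skin wild type 3 or any 1 fat array, and with median scaling. Pparg, the transcription factor that drives fat cell formation, stood at 3.31, 3.73 and 3.55 and 4.53, 4.54 and 4.62 and was lower in skin by 2.04-fold (adjusted p = 0.00342). Lep, which encodes leptin, stood at 2.81, 3.40 and 2.96 and 4.73, 4.53 and 4.66, 3.0-fold lower in skin (adjusted p = 0.00107). Skin samples of these mice held transcripts of these 5 genes at most 3.0-fold below epididymal fat. Wt1, a transcription factor of mesothelium, was not well above background on any skin array and stood at 1.14, -0.14 and 0.14 in fat, at least 10.1-fold higher there (adjusted p = 8.95e-05). Mapk8, the gene of JNK1, stood at -4.14, -2.42 and -2.16 in skin and -0.79, -0.96 and -1.0 in fat (difference -1.99 ± 0.51, adjusted p = 0.0157), with 2 of 3 skin arrays above background. Skin wild type 1 was the lowest skin array, without which the difference was -1.37, and the call was lost without fat wild type 1 and when all probes of the gene were averaged.

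**Figure D2:**
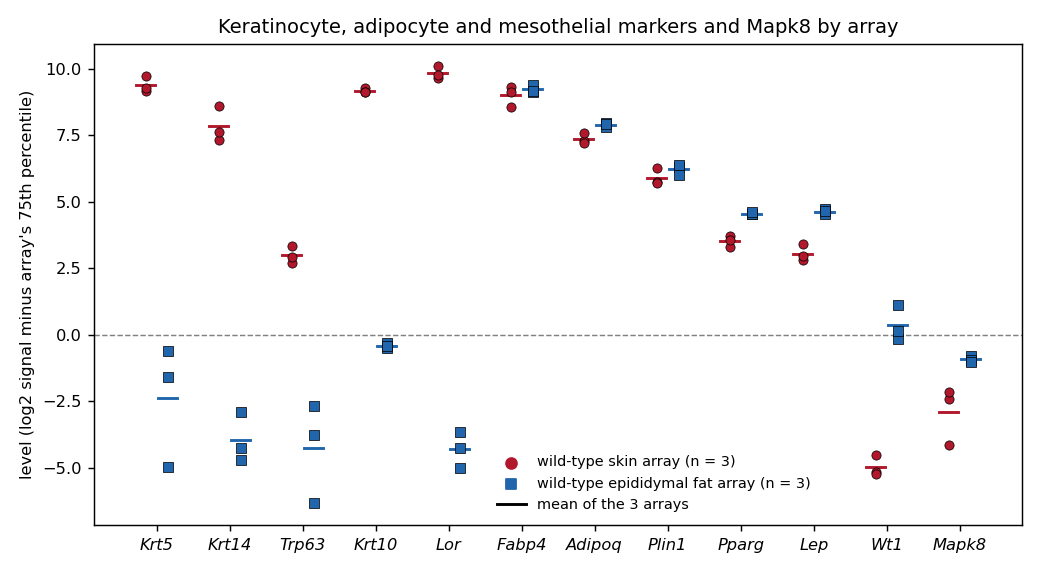
Level of 12 genes (log2 signal minus the array's 75th percentile, y axis) on each wild-type skin array (red circles) and each wild-type epididymal fat array (blue squares), with lines at the means of 3 arrays. Keratinocyte genes are far apart between the tissues, the adipocyte genes from Fabp4 to Lep lie close together, and Wt1 is above background only in fat.

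The largest differences belonged mostly to the outer epidermis. The 15 genes with the largest difference were Crct1, Lor, Kprp, Calm4, Krt1, Krt15, Psapl1, Fam25c, Cysrt1, 2310050C09Rik, 4 late cornified envelope genes and the muscle gene Tcap. Crct1, a small cysteine-rich protein of the cornified layer, stood at 8.68, 8.38 and 8.60 in skin and was not above background on any fat array, at least 6327-fold higher in skin (adjusted p = 2.77e-06). Lce1m, a late cornified envelope gene, stood at 8.88, 8.26 and 8.37 and was at least 6107-fold higher (adjusted p = 2.77e-06). Krt15, a keratin of basal cells and of the hair follicle bulge, stood at 8.42, 7.89 and 8.04 and was at least 4677-fold higher, and Krt1, the partner of Krt10, stood at 7.66, 6.51 and 6.51 and was at least 2000.1-fold higher. Lower bounds set the skin mean against the dimmest signal that counted as detected on each fat array, so the true ratio may be larger. The smallest p-values on the skin side were those of Krt10, Mt4, Psapl1, Tcap and Mybpc2 (adjusted p = 1.87e-06 for each). Mt4, a metallothionein of stratified epithelium, stood at 4.30, 4.48 and 4.74 in skin and was at least 382-fold higher.

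As groups, 17 of 18 basal keratinocyte genes and 50 of 51 suprabasal and cornified envelope genes were higher in skin and none was lower, with medians of 4.49 and 8.48 (log2) beside -0.12 over all genes tested. The cornified median was 6.99 with the 32 members that were dark in fat set at their bound. With normexp background correction the medians were 3.61 and 5.94. Many members passed the detection filter only through skin, so the count is not one over all listed genes. Of the 11 cornified genes detected on all 6 arrays, 10 were higher in skin. The basal gene that did not pass was Itga6, a laminin receptor subunit also made by vessels, at 3.43, 3.18 and 3.09 in skin and 2.97, 2.56 and 2.79 in fat (adjusted p = 0.0812). The cornified gene that did not pass was Sprr2a1, a small proline-rich protein gene, at 2.96, 4.66 and 4.71 and 3.59, 3.86 and 3.62 (adjusted p = 0.474), and without skin wild type 1 it was called higher. Near-identical copies within the Lce1, Sprr2, Krt6, keratin-associated protein and immunoglobulin kappa families can share probe signal, so the value of a single member is uncertain.

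These genes also lie together on the chromosomes. By the probe positions given in the scanner files (mm9), 31 cornified envelope genes lay on chromosome 3 between Lor and Tchh, chr3:91884206-93252912, the region known as the epidermal differentiation complex. Of 38 genes tested in that stretch 37 were called higher in skin, 25 of them by 100-fold or more by measured ratio, which for genes dark in fat rests on signal not above background, and none was lower. The type I keratin and keratin-associated protein genes of chr11:99177867-100117643 had 28 of 30 genes higher and 1 lower, and the type II keratin genes of chr15:101178889-101862400 had 13 of 16 higher and 1 lower. Over all placed genes 2.02% were 100-fold or more higher in skin by measured ratio, against 5.50% on chromosome 3. On the fat side the stretch of chromosome 6 that holds immunoglobulin kappa variable genes, chr6:69176986-70622273, had 23 of 24 tested genes lower in skin and none higher. Only 7 of the 24 carry an Igkv name, and probes in this stretch can share signal, so they are not 24 independent genes. Over all genes tested 26.2% were higher in skin and 28.6% lower.

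The 100 bases before the transcription start of genes from these groups are shown because a TATAAA motif, in capitals, was more frequent there among the genes highest in skin than among all genes (RefSeq sequences on GRCm38.p6, 5′ to 3′ on the strand of the gene). The first 5 are skin genes with the motif, Krt14 is a skin gene without it, and Adipoq, Upk3b and Itgax are genes of adipocytes, mesothelium and myeloid cells.
Lor, chr3:92083143-92083242, minus strand: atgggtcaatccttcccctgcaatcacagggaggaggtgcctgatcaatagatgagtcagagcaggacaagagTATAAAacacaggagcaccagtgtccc
Lce1m, chr3:93019062-93019161, minus strand: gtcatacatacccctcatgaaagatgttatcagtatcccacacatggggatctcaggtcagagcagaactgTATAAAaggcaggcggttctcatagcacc
Krt10, chr11:99389365-99389464, minus strand: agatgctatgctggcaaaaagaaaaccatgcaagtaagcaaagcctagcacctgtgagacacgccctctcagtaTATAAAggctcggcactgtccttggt
Krt31, chr11:100050552-100050651, minus strand: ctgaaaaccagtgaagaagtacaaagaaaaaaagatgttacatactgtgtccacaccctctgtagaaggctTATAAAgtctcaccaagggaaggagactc
Krtap8-1, chr16:89487953-89488052, minus strand: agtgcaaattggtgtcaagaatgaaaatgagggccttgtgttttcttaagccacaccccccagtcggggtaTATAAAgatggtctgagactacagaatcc
Krt14, chr11:100206031-100206130, minus strand: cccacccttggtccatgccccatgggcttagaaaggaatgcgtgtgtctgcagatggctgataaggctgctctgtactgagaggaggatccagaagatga
Adipoq, chr16:23146436-23146535, plus strand: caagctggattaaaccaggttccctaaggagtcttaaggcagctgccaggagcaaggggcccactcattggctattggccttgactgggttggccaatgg
Upk3b, chr5:136038396-136038495, plus strand: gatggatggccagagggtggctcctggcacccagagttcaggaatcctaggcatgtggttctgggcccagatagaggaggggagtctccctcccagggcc
Itgax, chr7:128129450-128129549, plus strand: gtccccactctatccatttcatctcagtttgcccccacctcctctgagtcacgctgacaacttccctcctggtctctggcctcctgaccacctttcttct

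In the first 5 the motif began 26 to 29 bases before the start (27 in Lor, 29 in Lce1m, 26 in Krt10, 29 in Krt31 and 29 in Krtap8-1), and the other 4 windows did not hold these letters. TATAAA was searched on the strand of the gene between 40 and 20 bases before the start, using the first promoter listed for each symbol. It was there in 2.22% of all 27025 promoters, in 2.12% of those of the 10467 tested genes with an entry, in 4.92% of genes at least 2-fold higher in skin and in 1.81% of genes at least 2-fold lower. The share was 18.6% among the 210 genes with an entry that were at least 100-fold higher by measured ratio, 31.7% of 41 cornified envelope genes and 71.4% of 21 keratin-associated protein genes. On either strand of the 300 bases around the start, TATAAA was in 14.2% of all promoters, in 8.56% of those of tested genes, and in 36.6% of cornified genes, 95.2% of keratin-associated protein genes, 10% of adipocyte core genes and 11.1% of macrophage genes. TGANTCA with any base at N, a pattern that includes the letters bound by AP-1 factors, was searched in the same 300 bases on either strand. It was in 7.93% of all promoters, in 5.57% of those of tested genes and in 34.1% of cornified genes. It was also in 28.6% of keratin-associated protein genes and 16.7% of macrophage genes, but in 3.33% of adipocyte core genes and 0 of 4 hair shaft keratin genes. A match is a description of letters, and no match says only that these letters were not in the window.

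The parts that hold keratinocytes together and seal them were mostly higher in skin, though members dark in fat passed the filter only through skin. Of members detected on all 6 arrays, 6 of 7 desmosome genes were higher and 1 lower. For tight and gap junctions 6 of 11 such genes were higher and 2 lower, and for barrier lipids 7 of 14 and 2. Of all genes so detected 25.2% were higher and 23.9% lower. Of 13 desmosome genes 12 were higher, with Pkp1, an epidermal plakophilin, at 7.0, 6.04 and 6.03 in skin and -2.11, -1.66 and -0.98 in fat, and Dsp, the desmoplakin that ties desmosomes to keratin, at 7.05, 6.34 and 6.16 and -0.67, -0.67 and -2.33. The member that went the other way was Pkp2, the plakophilin of simple epithelia and heart, at 1.44, 1.78 and 1.45 in skin and 3.46, 3.11 and 3.21 in fat (3.25-fold lower, adjusted p = 5.76e-04). Of 19 tight and gap junction genes 13 were higher and 2 lower. Cldn1, the claudin of the epidermal barrier, stood at 0.85, 0.12 and 0.18 in skin and was at least 21.9-fold higher. Of 25 genes for barrier lipids 18 were higher and 2 lower. Acer1, a ceramidase of the epidermis, stood at 6.41, 5.63 and 5.76 and was at least 1028-fold higher, Elovl4, which builds very long fatty acids, at least 183-fold, and Abca12, the lipid carrier of lamellar granules, at least 48.3-fold. The lower members were Asah1, the lysosomal ceramidase (3.82-fold), and Sptlc2, a subunit of the enzyme that starts sphingolipid synthesis (1.90-fold). Of 22 transcription factor genes of epithelia 21 were higher, among them Klf5 (at 3.62, 2.59 and 2.43 against -3.05, -4.0 and -4.47), Zfp750 (at least 58.0-fold) and Ovol1 (at least 28.5-fold).

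Hair follicle genes were the part of skin that varied most between arrays. All 9 tested hair shaft keratins, 23 tested keratin-associated proteins and 8 tested inner root sheath genes were higher in skin, but of the 15, 50 and 13 listed genes the others were not detected on 3 arrays or were not on the array. Members dark in fat, 7, 17 and 4 of those tested, passed the filter only through skin, and all 460 genes dark in fat were called higher, so the filter fixed these counts. Krt33a, a hair shaft keratin, stood at 1.96, 4.52 and 2.46 in skin and was not above background in fat (at least 133-fold, adjusted p = 1.29e-04). Krt71, the keratin of the inner root sheath, stood at 4.52, 6.67 and 4.69 (at least 659.9-fold), and Krtap6-1, a glycine- and tyrosine-rich protein of the hair shaft, at 1.79, 5.25 and 3.44 (at least 189.5-fold). Skin wild type 2 was the highest skin array for each of these. Without it the lower bounds of Krt33a, Krt71 and Krtap6-1 were 78.0-fold, 409.9-fold and 103-fold, and without skin wild type 1 that of Krtap6-1 was 342-fold. The mean of the hair shaft keratin list was 1.20, 3.34 and 1.56 on the 3 skin arrays. The regulators of the follicle did not follow that array: Wnt10a, a ligand of hair placodes and matrix, stood at 5.14, 3.56 and 3.81, and Lhx2, a factor of follicle stem cells, at 3.0, 1.66 and 2.34, both lowest on skin wild type 2. Of 27 follicle regulators 17 were higher in skin and 1 lower.

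Sebaceous and pigment cell genes split. Of 17 sebaceous gland genes 10 were higher and 2 lower. Scd3, a desaturase of sebocytes, stood at 4.23, 3.33 and 3.44 and was at least 213-fold higher, Awat2, a wax ester synthase, at least 41.8-fold, and Elovl3, an elongase of sebum fatty acids, at least 56.2-fold. Of 10 melanocyte genes 5 were higher and 5 lower. The lowest was Gpnmb (-3.02), which is described below with the genes of macrophages that take up lipid. Dct, an enzyme of melanin synthesis, stood at 0.47, 1.08 and 1.41 and was at least 33.3-fold higher, and Mlana, a melanosome protein, stood at 1.46, 1.07 and 1.30 against -2.08, -2.77 and -1.36. Kit, a receptor that mast cells also express, was lower in skin, at -2.04, -2.15 and -2.63 against -0.21, -0.12 and 0.34, and the mast cell genes described below moved the same way.

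Defence peptides divided by kind. Of 22 antimicrobial and alarmin genes 12 were higher in skin and 3 lower. Of the 10 detected on all 6 arrays 2 were higher and 2 lower, so most of the higher calls rest on genes not detected throughout. The beta-defensin genes Defb6 (at 5.92, 5.66 and 5.56) and Defb14 (at 1.70, 1.66 and 1.67) were at least 884-fold and 53.8-fold higher in skin. Slpi, a secreted inhibitor of leukocyte proteases, went the other way, at 1.06, -0.09 and 0.12 in skin and 6.26, 6.42 and 6.10 in fat, 59.3-fold lower in skin (adjusted p = 3.11e-05). Lyz1, a lysozyme, was 3.99-fold lower. Of 10 genes of activated keratinocytes 6 were higher in skin and 2 lower. Of the 4 detected on all 6 arrays 0 were higher and 2 lower. Krt17, a keratin of follicles and of activated epidermis, stood at 8.98, 7.80 and 8.08 in skin and -3.65, -4.24 and -4.04 in fat, and Krt16 at 4.23, 2.48 and 2.54 and at least 143-fold higher. Krt19 and Krt7, keratins of simple epithelia and mesothelium, were the lower members, Krt19 at -1.14, -1.25 and -1.24 against 2.94, 2.52 and 1.54 and Krt7 at 0.06, -0.33 and -0.35 against 1.53, 1.22 and 1.15.

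Skeletal muscle genes separated the tissues about as far as those of the cornified layer. All 31 tested muscle genes were higher in skin, with a median of 8.13 (log2), 7.94 with the 8 members dark in fat at their bound and 6.99 with normexp background correction, and all 17 of those detected on every array were higher. Tcap, a protein of the muscle Z disc, stood at 8.91, 9.20 and 9.66 in skin and -4.28, -3.74 and -3.76 in fat (13.18 ± 0.26, adjusted p = 1.87e-06). Myh4, the myosin of fast fibres, stood at 9.51, 9.46 and 9.83 and -1.16, -0.22 and -0.57, Ckm, the muscle creatine kinase, at 8.19, 7.73 and 8.35 and -1.66, -1.19 and -2.36, and Acta1, skeletal actin, at 9.81, 9.42 and 9.63 and 2.44, 2.54 and 1.73. Mb, myoglobin, stood at 7.17, 7.35 and 7.65 and was at least 2630.2-fold higher. The 3 skin arrays were close to each other, with a list mean of 5.63, 5.81 and 5.84. The skin samples therefore carried muscle RNA. Smooth muscle and pericyte genes had no common direction, with 3 of 11 higher in skin and 2 lower, or 3 and 5 with normexp background correction and 3 and 4 with median scaling or quantile normalization: Acta2, smooth muscle actin, was 9.80-fold higher in skin, Mylk, the smooth muscle myosin light chain kinase, was 4.28-fold lower, and Myh11, smooth muscle myosin, stood at 0.47, 0.16 and -0.03 against 3.74, 2.99 and 0.94 with fat wild type 4 the lowest fat array. Without skin wild type 2 or 3, or fat wild type 1 or 3, the call of Myh11 was lost, and that of Acta2 was lost when its probes were averaged. The difference of Myh11 went from -2.36 to -3.17 without fat wild type 4 and to -1.77 without fat wild type 1.

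The connective tissue genes were shared. Of 41 dermal fibroblast and matrix genes 8 were higher in skin and 6 lower, with a median of -0.11 that lay near that of all genes, though 12 were lower after quantile normalization. The fibrillar collagens were higher in skin: Col1a1 stood at 7.75, 6.09 and 6.83 against 4.19, 3.50 and 4.31 (7.42-fold, adjusted p = 0.00202), Col1a2 was 4.48-fold higher and Col3a1 2.70-fold. Thbs4, a matrix protein of tendon and muscle, was 17.5-fold higher. Col6a5, a chain of collagen VI, was among the 15 largest differences on the fat side, at 2.64, 1.49 and 2.13 in fat and not above background in skin (at least 33.0-fold, adjusted p = 1.21e-04). Fmod, a proteoglycan that binds collagen fibrils, was 7.36-fold lower in skin. Of 16 metalloproteinase and inhibitor genes 3 were higher and 7 lower. Mmp12, the elastase of macrophages, stood at 0.48, 2.06 and 1.52 in fat and was at least 19.8-fold higher there, and Timp1, a metalloproteinase inhibitor, was 3.64-fold lower in skin.

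**Figure D3:**
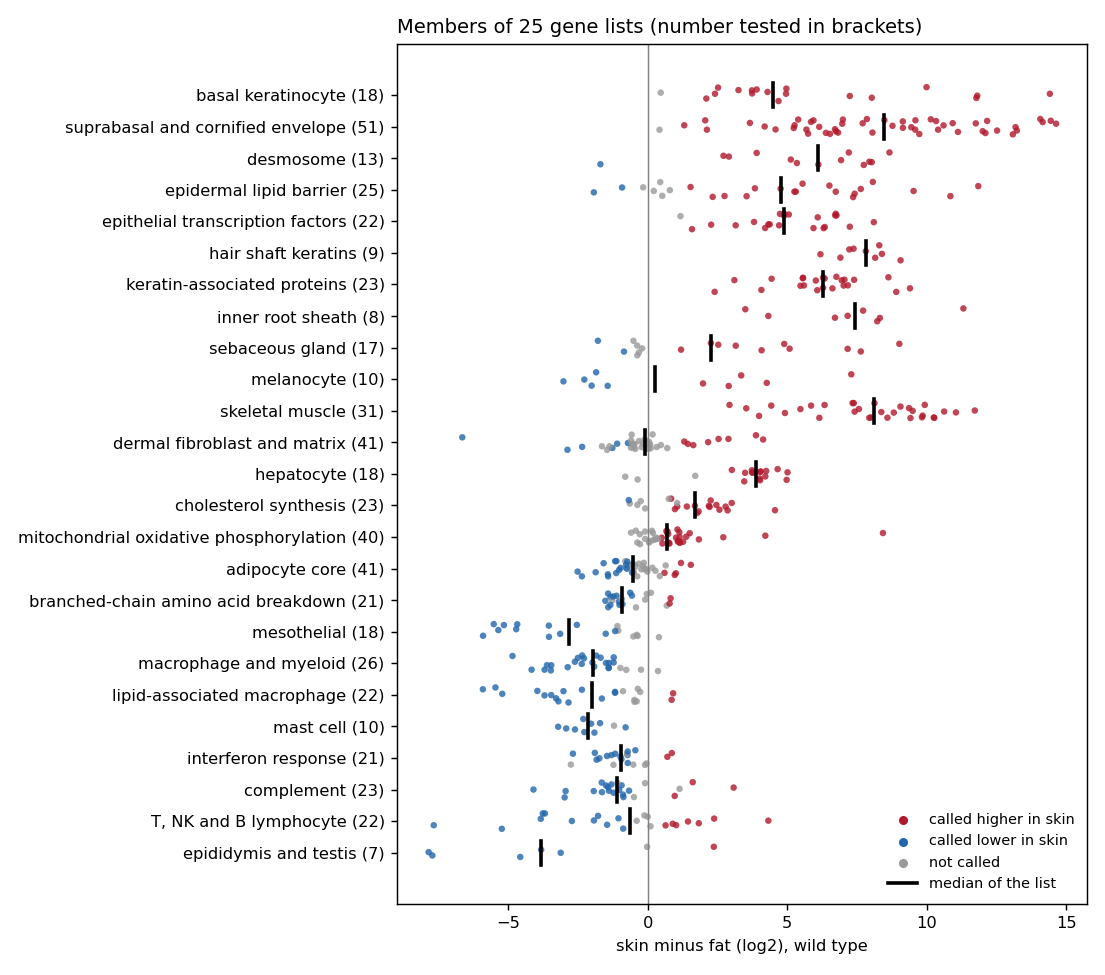
Difference between wild-type skin and epididymal fat (log2, x axis) for the tested members of 25 gene lists (rows), with members called higher in skin in red, called lower in blue and others in grey, and a black bar at each median. Epidermal, hair and skeletal muscle lists lie to the right of 0, the mesothelial, macrophage and mast cell lists to the left, and the adipocyte core and matrix lists straddle it.

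Within the adipocyte programme of wild-type mice, small differences towards fat were the rule and large ones were few. The knockout arrays gave more calls towards fat, as described below. Of 41 adipocyte core genes, all detected on all 6 arrays, 16 were lower in skin and 5 higher, with a median of -0.52. The count depends on scaling: 30 were lower and 4 higher after quantile normalization, and 22 and 4 in the authors' value table. Npr3, the natriuretic peptide clearance receptor, stood at -0.11, 2.25 and 1.99 in skin and 4.19, 3.66 and 3.83 in fat (5.72-fold lower in skin), and Cd36, the fatty acid carrier, at 2.93, 5.13 and 4.82 and 6.64, 6.65 and 6.67 (5.14-fold lower). Skin wild type 1 was the lowest array for both, and without it the differences went from -2.52 and -2.36 to -1.77 and -1.68. Without fat wild type 1 the call of Npr3 was lost. Acvr1c, a receptor of the activin family in adipocytes, was 3.65-fold lower in skin. Cidec, which enlarges lipid droplets, stood at 8.72, 8.73 and 8.52 and 8.59, 8.86 and 8.84 (adjusted p = 0.607), and Retn, which encodes resistin, at 4.68, 4.37 and 4.13 and 4.87, 4.69 and 4.76 (adjusted p = 0.145), with groups close together or overlapping, and quantile normalization called both lower in skin. Slc2a4, the glucose carrier of muscle and fat, was 2.91-fold higher in skin, and Cebpb, a transcription factor of early fat cell formation, 2.28-fold higher. Slc2a4 moved with the muscle genes given above, and their part in its difference was not tested.

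Among 28 adipokine genes 10 were lower in skin and 5 higher. Igf1, insulin-like growth factor 1, stood at 3.18, 3.53 and 3.33 in skin and 4.90, 5.28 and 5.20 in fat (3.44-fold lower, adjusted p = 4.87e-04). C1qtnf3, an adiponectin relative made by connective tissue, stood at -1.53, -1.30 and -1.12 and was at least 6.74-fold higher in skin. Of 25 lipid droplet genes 6 were higher and 5 lower, with 12 lower after quantile normalization. Cidea, a droplet protein of sebocytes and brown fat, stood at 6.60, 5.95 and 5.97 against 3.03, 2.70 and 3.32 (8.89-fold higher in skin, adjusted p = 1.71e-04), whereas Pde3b, the phosphodiesterase through which insulin restrains lipolysis, was 3.42-fold lower, a call that was lost when its probes were averaged. Of 27 genes of fatty acid uptake and triglyceride assembly 8 were higher and 6 lower, with 12 lower after quantile normalization: Fabp3, the binding protein of muscle, stood at 7.11, 7.17 and 7.37 against 1.25, 0.97 and 0.63, and Slc27a4, the fatty acid carrier needed for the skin barrier, at 4.27, 2.99 and 3.37 against -0.28, 0.27 and 0.09. Of 21 lipogenesis genes 6 were higher and 4 lower, with 8 lower after quantile normalization. Elovl6, which lengthens palmitate, stood at 3.69, 4.51 and 4.32 in skin and 0.48, 0.12 and 0.40 in fat (14.3-fold higher, adjusted p = 7.32e-05), while Scd1, the main desaturase, stood at 6.99, 6.41 and 6.36 and 7.29, 6.91 and 7.09 (adjusted p = 0.101) and was called lower after quantile normalization and without skin wild type 1.

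Cholesterol synthesis leaned towards skin. Of its 23 genes, all detected on all 6 arrays, 16 were higher in skin and 1 lower, with a median of 1.69, and 15 or 16 were higher under each of the other scalings. Hsd17b7, a sterol reductase, stood at 4.97, 3.82 and 3.96 in skin and 1.05, 1.34 and 1.34 in fat (8.05-fold higher, adjusted p = 4.91e-04). Mvd was 7.26-fold higher, Dhcr7 6.91-fold and Sqle, which makes the first oxygenated sterol precursor, 5.49-fold. Hmgcs1, at the entry to the pathway, stood at 4.30, 4.85 and 4.83 and 4.93, 5.06 and 5.11 and did not pass (adjusted p = 0.168), though quantile normalization called it lower. Skin wild type 1 was the highest skin array for Dhcr7, Sqle, Mvd and Hsd17b7, and no fat array overlapped the skin arrays for any of these 4.

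Mitochondrial genes differed in kind. Of 40 genes of oxidative phosphorylation 24 were higher in skin and none lower (median 0.70), but only 9 were higher and 4 lower after quantile normalization, when the median was -0.02, and 10 and 3 in the authors' value table. The members that hold under all of these include the muscle isoforms Cox6a2, at 8.46, 7.96 and 8.43 against -0.47, 0.16 and -0.13, Cox7a1, at 7.32, 6.79 and 7.5 against 3.14, 3.02 and 2.81, and Cox8b, 6.53-fold higher. Of 21 genes for the breakdown of branched-chain amino acids 12 were lower in skin and 2 higher (median -0.92), with 12 to 14 lower under every scaling. Mccc1, a subunit of methylcrotonyl-CoA carboxylase, stood at 2.88, 3.57 and 3.23 and 4.73, 4.41 and 4.80 (2.68-fold lower), Pcca, of propionyl-CoA carboxylase, was 2.68-fold lower, and Aldh6a1, of valine breakdown, 2.53-fold lower. In fatty acid oxidation 8 of 25 genes were lower and 5 higher, or 11 and 2 after quantile normalization: Acadm, the medium-chain dehydrogenase, was 3.02-fold lower, and Cpt1b, the carnitine transferase of muscle, 21.2-fold higher.

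Thermogenic genes did not move as a group, with 7 of 17 higher in skin and 3 lower. Ucp1, the uncoupling protein of brown and beige fat, was not above background on any skin array and stood at 1.33, 0.78 and -0.01 in fat, at least 12.6-fold higher there (adjusted p = 2.03e-04). Tbx15, a patterning factor of dermis and of some fat depots, was not detected in fat and stood at 1.83, 1.89 and 2.31 in skin, at least 67.8-fold higher. Other genes of position differed in both directions, the HOX genes at shares near the 26.2% higher and 28.6% lower of all genes tested. Of 20 HOX genes 5 were higher and 5 lower, or 9 and 3 with normexp background correction, with Hoxd9 at 0.97, 0.29 and 0.49 against -1.55, -1.75 and -1.88 and Hoxc9 at -2.28, -0.65 and -1.05 against 1.05, 0.52 and 0.47. Of 22 other positional regulators 11 were higher and 5 lower. Irx2 and Irx4, regulators of patterning, were 33.4-fold and 26.2-fold higher in skin, and Pitx1, a factor of the hindlimb and lower body, at least 5.89-fold.

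Mesothelial genes lay mostly on the fat side. Of 18 tested mesothelial genes 12 were lower in skin and none higher (median -2.84). The median was -2.03 with the 6 members dark in skin at their bound, and -1.42 with normexp background correction. Those 6 passed the filter only through fat, and of all 941 tested genes dark in skin 842 (89.5%) were called lower. Of the 10 mesothelial genes detected on all 6 arrays 5 were lower, beside 23.9% of all genes so detected. Msln, mesothelin, stood at -2.42, -3.0 and -2.57 in skin and 3.13, 2.70 and 2.74 in fat and had the smallest p on the fat side (-5.52 ± 0.23, adjusted p = 1.05e-05). Upk3b, a uroplakin of mesothelium, stood at 1.92, 1.52 and 1.36 in fat and was at least 23.5-fold higher there, Lrrn4 at least 8.96-fold and Gpm6a, a surface glycoprotein, at least 11.9-fold. Tcf21, a transcription factor of visceral mesenchyme, was detected on all 3 fat arrays and no skin array. Rspo1, a secreted enhancer of Wnt signals, stood at 1.11, 0.84 and 0.52 and 3.68, 3.32 and 3.1 (5.83-fold lower in skin), and Aldh1a2, which makes retinoic acid, at -1.57, -0.75 and -1.13 and 1.96, 2.15 and 1.86 (8.83-fold lower). The groups did not overlap for any of these genes.

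Some of the largest differences on the fat side were of genes high on fat wild type 1 and 3, among them the epididymal gene Crisp1. Akr1b7, an aldose reductase relative, stood at 8.46, 8.22 and 2.42 on fat arrays 1, 3 and 4 and was not above background in skin, at least 639-fold higher in fat (adjusted p = 0.00135). Crisp1, a sperm-coating protein of the epididymis, stood at 5.50, 5.05 and -1.73, and Spink8, a protease inhibitor, at 5.67, 5.62 and -1.11. Fat wild type 1 and 3 were high for all 3 and fat wild type 4 was lower by more than 5 log2 units. Crisp1 and Spink8 were at least 59.5-fold and 81.3-fold higher in fat. Without fat wild type 4 the lower bounds of Akr1b7, Crisp1 and Spink8 were 2513-fold, 300.4-fold and 388-fold, and without fat wild type 1 they were 309-fold, 24.5-fold and 37.0-fold. Without fat wild type 3 they were 336-fold, 28.7-fold and 37.5-fold. Crygc and Serpina1f had the same order, at 3.89, 3.67 and -3.22 and 3.52, 3.44 and -2.97, and their calls were lost without fat wild type 1 or 3, without skin wild type 3, and with normexp background correction, and that of Crygc also without skin wild type 1 or 2. Their lower bounds were 21.1-fold and 19.5-fold, 106-fold and 86.5-fold without fat wild type 4, 9.04-fold and 9.13-fold without fat wild type 1, and 9.76-fold and 9.40-fold without fat wild type 3. Of 34 listed epididymis and testis genes 7 were tested and 5 were lower in skin, none of the 5 detected on all 6 arrays. The defining markers Lcn5 and Adam7 were not tested, since Lcn5 was above background on 1 fat array and Adam7 on none. Whether the fat samples held epididymal tissue was not tested. Sult1e1, an oestrogen sulfotransferase also known in fat, stood at 3.91, 2.65 and 3.07 with no such split.

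**Figure D4:**
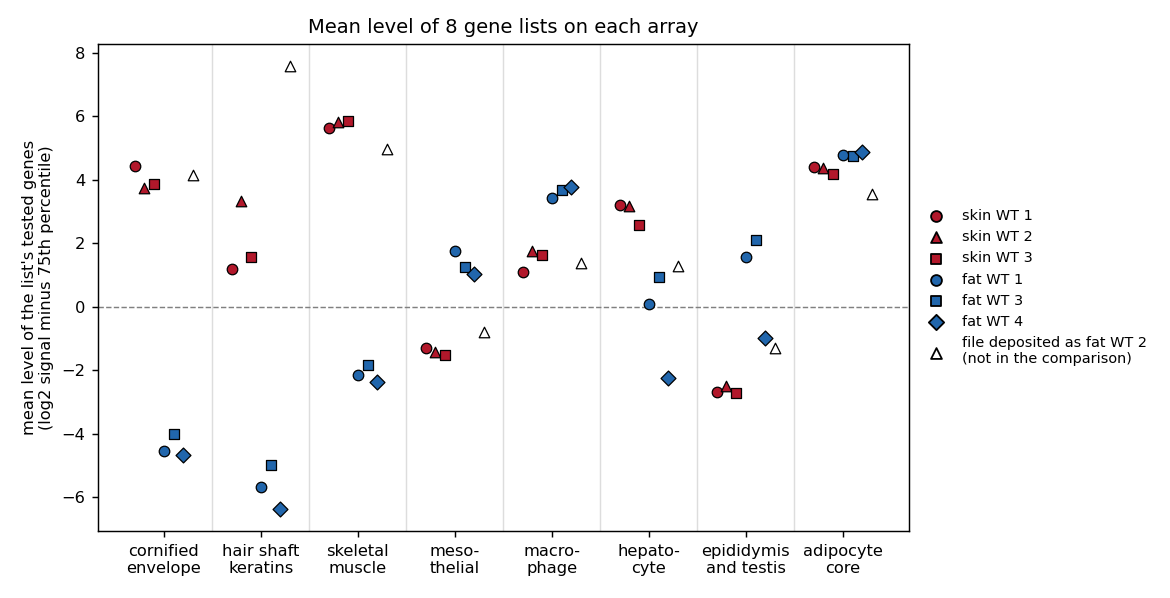
Mean level (log2 signal minus the 75th percentile, y axis) of the tested genes of 8 lists on each wild-type skin array (red) and fat array (blue), with the file deposited as fat wild type 2 as open triangles. Epididymis genes are high on fat 1 and 3 only, hair keratins are highest among skin arrays on skin 2, hepatocyte genes are lowest on fat 4, and the open triangles lie near or above skin for cornified, hair and muscle genes.

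Macrophage genes were mostly lower in skin. Of 26 macrophage and myeloid genes 22 were lower in skin and none higher (median -1.95, -1.69 with normexp background correction), with 22 or 23 lower under each scaling. Adgre1, which encodes F4/80, stood at 1.87, 2.77 and 2.64 in skin and 5.17, 5.35 and 5.38 in fat (7.32-fold lower, adjusted p = 2.69e-04). Itgax, which encodes CD11c, stood at 1.01, 1.80 and 1.61 and 4.79, 5.15 and 5.58 (13-fold lower), and Clec7a, a receptor for fungal glucans, at -0.87, 1.35 and 1.01 and 4.74, 5.70 and 5.61 (28.8-fold lower). Itgam, a myeloid integrin, was detected on all 3 fat arrays and on no skin array. Skin wild type 1 was the lowest skin array for all 3 and the skin array with the smallest detected share, and without it the difference of Clec7a went from -4.85 to -4.17. Lyz2 and Clec10a did not pass (adjusted p = 0.0709 and 0.348), though quantile normalization called Lyz2 lower, with Clec10a, a lectin of resident macrophages, at 3.72, 3.92 and 3.95 and 4.45, 3.92 and 3.96.

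Of the genes of macrophages that take up lipid, 14 of 22 were lower in skin and 2 higher. Spp1, osteopontin, stood at -3.39, -0.50 and -0.85 in skin and 3.39, 4.28 and 3.97 in fat (44.1-fold lower, adjusted p = 0.00124). Trem2, the lipid-sensing receptor, stood at 2.50, 4.17 and 4.27 and 6.39, 7.27 and 7.15 (9.78-fold lower), and Clec4d, a myeloid lectin, at -4.05, -0.03 and -0.26 and 3.34, 5.30 and 4.76 (60.2-fold lower). Skin wild type 1 was again the lowest array, and without it the differences of Spp1 and Clec4d went from -5.46 and -5.91 to -4.56 and -4.61. Gpnmb, a lysosomal glycoprotein, stood at 1.36, 3.12 and 2.67 and 3.73, 6.26 and 6.23, with fat wild type 3 and 4 above fat wild type 1. Without fat wild type 3 its call was lost, as it was when its probes were averaged, and without fat wild type 1 its difference went from -3.02 to -3.86. Atp6v0d2, a proton pump subunit of phagocytes, was detected in fat alone, at least 5.84-fold higher. The broadly expressed members Cd63 and Lgals3 did not pass (adjusted p = 0.207 and 0.339), though quantile normalization called both lower, and Cd9, a tetraspanin, was 1.81-fold higher in skin.

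Other immune cells differed by type. Of 10 mast cell genes 9 were lower in skin, with Fcer1a, a subunit of the IgE receptor, at -2.69, -1.45 and -1.51 and 0.87, 1.57 and 1.55, and Cma1, a chymase, at 3.01, 3.59 and 3.25 and 4.79, 5.40 and 5.40. Of 11 genes of Langerhans and dendritic cells 3 were higher and 2 lower, or 3 and 5 after quantile normalization. Cd207, the langerin of epidermal Langerhans cells, stood at 0.21, 0.88 and 0.83 in skin and was at least 26.2-fold higher there. Among 22 lymphocyte genes 7 were higher and 11 lower, or 7 and 8 with normexp background correction. Of the 14 detected on all 6 arrays 6 were higher and 4 lower, so the excess of lower calls rests on members not detected throughout. T cell and cytotoxic genes were on both sides: Cd3e, a T cell receptor subunit, was 3.55-fold higher in skin and Prf1, perforin, 5.20-fold higher, whereas Cd8a was detected in fat alone (at least 4.37-fold) and Cd8b1 was 6.60-fold lower in skin. Among B cell genes, Ms4a1, which encodes CD20, was at least 8.88-fold lower in skin and Cd79b 12.9-fold lower, while Ighm, the heavy chain of IgM, stood at 5.44, 5.34 and 5.58 and 5.29, 5.57 and 5.87 and did not pass (adjusted p = 0.633), though quantile normalization called it lower. Jchain, the joining chain of secreted antibodies, stood at 4.37, 3.17 and 4.2 in fat and was at least 114-fold higher there, and Igkv4-55 and Igkv4-59 were at least 22.6-fold and 25.1-fold higher. Igkv4-57-1 had 1 of the 5 smallest p-values on the fat side (adjusted p = 1.60e-05). Of 9 MHC class II genes 1 was lower and none higher, Ciita, their activator, at 0.03, -0.07 and -0.01 and 1.26, 0.81 and 1.28, while H2-Aa stood at 4.46, 4.68 and 4.54 and 4.67, 4.50 and 4.98 (adjusted p = 0.509). Quantile normalization called 5 of the 9 lower in skin. The 15 largest differences on the fat side were those of Akr1b7, Crisp1, Spink8, Jchain, Col6a5, Crygc, Serpina1f, Igkv4-55 and Igkv4-59 and of 6 genes that carry only a sequence identifier in the scanner files and are not named.

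Complement genes leaned towards fat, and cytokine and chemokine genes did so only where some arrays lacked detection. Of 32 cytokine and chemokine genes 15 were lower in skin and 7 higher. Of the 21 detected on all 6 arrays 7 were lower and 6 higher. The median of the list was -1.21, and -0.43 with normexp background correction. Ccl5, a T cell chemokine, stood at 1.77, 1.92 and 1.74 and 4.17, 3.92 and 4.34 (5.03-fold lower), and Ccl2, a monocyte chemokine, at 0.06, 1.64 and 1.36 and 3.04, 3.30 and 3.09 (4.37-fold lower). On the skin side Ccl27a, a chemokine that draws T cells to skin, stood at 5.80, 5.63 and 5.42 against 0.31, -0.12 and -0.30 (50.4-fold higher, adjusted p = 8.74e-06), and Il1r2, the decoy receptor of interleukin 1, at 3.34, 3.05 and 3.12 against -3.31, -2.82 and -3.43. Of 23 complement genes 16 were lower in skin and 3 higher, with C3 at 6.95, 6.39 and 6.06 against 8.18, 7.88 and 8.27 (3.12-fold lower), C3ar1, its receptor, 17.1-fold lower, and Masp1, a protease of the lectin pathway, 8.44-fold higher. Of 21 interferon response genes 13 were lower and 2 higher, with Rsad2, the antiviral enzyme viperin, at -1.38, -0.68 and -1.20 against 0.78, 0.78 and 0.68. The macrophage genes given above moved the same way, and their part in these differences was not tested. Endothelial genes were lower in skin for 9 of 23 and higher for none, and Cd93, a receptor of endothelium, was 4.43-fold lower.

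Transcripts of hepatocyte genes were detected in both tissues and more in skin. Of 18 hepatocyte genes 15 were higher in skin and none lower (median 3.88, 3.20 with normexp background correction). Alb, albumin, stood at 5.6, 6.43 and 5.45 in skin and 2.59, 3.51 and 0.15 in fat (3.74 ± 0.82, adjusted p = 0.00896), beside a mean of 9.78 on the 3 wild-type liver arrays. Ahsg, fetuin-A, stood at 6.39, 6.0 and 4.98 and 1.86, 2.80 and 0.64, beside 9.04 in liver. Fat wild type 4 was the lowest array for both, without it the difference of Alb was 2.77, without fat wild type 3 it was 4.45, and the list mean on the 3 fat arrays was 0.08, 0.95 and -2.23 against 3.21, 3.17 and 2.58 on skin.

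Signalling genes showed the epithelial and fat sides again. Wnt pathway genes were higher in skin for 22 of 35 and lower for 4, with Wnt3 at 2.73, 1.51 and 1.66 (at least 65.7-fold), Wnt4 at 1.85, 1.12 and 1.57 against -4.27, -4.90 and -4.15, and the receptor Fzd10 at least 155-fold higher. Of 10 genes of the EGF receptor family and its ligands 7 were higher and 1 lower: the receptors Erbb3 and Erbb2 were 12.1-fold and 11.2-fold higher, the ligand Epgn 11.1-fold higher and the ligand Nrg4, known as an adipokine, 2.28-fold lower. Crabp2, which carries retinoic acid to the nucleus, was at least 15.7-fold higher in skin, in a list of 23 retinoid and steroid genes of which 9 were higher and 5 lower, or 9 and 8 after quantile normalization.

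Of 22 genes of the JNK cascade and AP-1, 5 were higher in skin and 9 lower, or 9 and 7 in the authors' value table. Atf3, a stress-induced factor, stood at 0.54, 1.26 and 1.22 in skin and 3.56, 4.47 and 4.23 in fat (8.43-fold lower, adjusted p = 3.91e-04), Junb at 5.75, 5.23 and 5.6 against 3.57, 4.0 and 4.04 (3.15-fold higher) and Fos at -0.16, -0.36 and 0.53 against 1.24, 1.30 and 1.30 (2.43-fold lower). Mapk9, the gene of JNK2, stood at -1.63, -2.0 and -1.67 and -0.78, -0.77 and -0.75, 2.0-fold lower in skin (adjusted p = 0.00356). Antioxidant genes were split, with 11 of 39 higher and 11 lower, near the shares of all genes tested (26.2% higher and 28.6% lower). After quantile normalization 22 were lower and 7 higher. Gsta1, a glutathione transferase, stood at 0.68, 1.29 and 1.31 against -1.72, -2.14 and -5.88, with every skin array above every fat array, and without fat wild type 4 its difference went from 4.34 to 3.03. Cat, catalase, stood at 3.31, 3.19 and 3.17 against 4.51, 4.54 and 4.64 (2.52-fold lower, adjusted p = 6.86e-04). Prdx1, a peroxidase, and Srxn1, which restores it, were 3.65-fold and 3.97-fold lower in skin. Of 15 oxidase genes 4 were higher and 8 lower. The phagocyte subunit Ncf4 was 4.86-fold lower in skin, and Cybb, its catalytic partner, was detected in fat alone (at least 6.78-fold), whereas Duox1, an epithelial oxidase, was 10.8-fold higher in skin.

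Genes often used as references differed too. Of 20 such genes 9 were higher in skin and 2 lower, though 5 were higher and 6 lower after quantile normalization. Gapdh stood at 9.26, 8.32 and 8.80 against 6.15, 6.93 and 6.77 (4.52-fold higher in skin, adjusted p = 0.00160), Gusb at 2.54, 2.45 and 2.35 against 4.45, 4.69 and 4.80 (4.59-fold lower, adjusted p = 1.43e-04), and Ppia at 5.74, 5.80 and 5.63 against 5.59, 6.13 and 5.88 (adjusted p = 0.550). Of 29 cell cycle genes 4 were higher in skin and 4 lower, or 8 and 6 with normexp background correction, 8 and 2 in the authors' value table and 3 and 1 with median scaling.

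The same contrast in knockout mice, on 8 arrays that share none with the wild type, gave mostly the same calls. In that comparison 3697 of 15597 genes tested (23.7%) were called higher in skin and 5668 (36.3%) lower. Of the genes called higher in wild-type skin 3773 were tested in the knockout, and 3017 of them (80.0%) were called higher and none lower. Of those called lower 4128 were tested, and 3503 (84.9%) were called lower and 6 higher. The 6 were Cldn7, Mia, Vsig8, Ccn4, Npy and Ero1a. Cldn7, a claudin of simple epithelia, stood at -2.06, -2.39 and -2.29 in wild-type skin and 0.95, 1.01 and -1.33 in wild-type fat, with a difference of -2.46 in wild type and 1.98 in the knockout. Mia, a secreted protein of cartilage and melanocytes, had differences of -2.28 and 2.46, and Vsig8, a surface protein of the hair follicle, -2.12 and 3.33. Ero1a had -0.48 and 1.51, and Ccn4 and Npy were not above background on any wild-type skin array. Of these 6 wild-type calls, that of Cldn7 was lost without fat wild type 1, those of Vsig8, Npy and Ero1a when any 1 of at least 4 arrays was left out, that of Ccn4 in the authors' value table and with normexp background correction, and that of Npy turned to 0.29 with normexp background correction. A test of the difference between the 2 contrasts called none of these 6 (limma adjusted p = 0.148 to 0.408) and no other gene either.

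Hair shaft levels in skin were higher on the knockout arrays, with no test of that difference made here. Krt33a was at 2.98 ± 1.36 in wild-type skin (SD, n = 3) and 7.08 ± 1.26 in knockout skin (SD, n = 4), Krt71 at 5.29 ± 1.19 and 9.03 ± 0.79, and Krtap6-1 at 3.49 ± 1.73 and 8.31 ± 1.09. In the knockout all 9 hair shaft keratins, 23 keratin-associated proteins and 29 tested muscle genes were called higher in skin, 12 of 18 mesothelial genes were called lower and 23 of 26 macrophage genes were called lower. Of 41 adipocyte core genes 27 were called lower and 2 higher, with a median of -1.18 (log2) against -0.52 in wild type. Plin1 and Retn were called lower there (-1.49 and -1.45, limma adjusted p = 0.00182 and 0.00599), whereas Fabp4 and Cidec were not called. Crisp1 was not called in the knockout, where its difference was 1.93 against -7.86 in wild type (limma adjusted p = 0.214). Akr1b7, Spink8, Crygc and Serpina1f were detected on too few knockout arrays to be tested there. Their means in fat were 6.37, 3.39, 1.44 and 1.33 in wild type and -3.92, -3.05, -6.30 and -5.53 in the knockout.

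**Figure D5:**
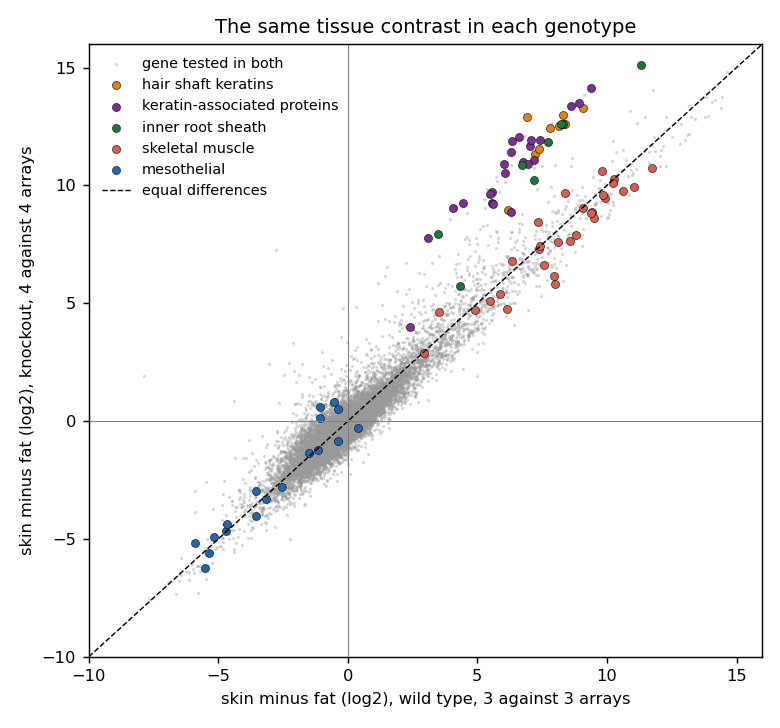
Skin minus epididymal fat (log2) in wild type (x axis, 3 against 3 arrays) and in JNK1 knockout mice (y axis, 4 against 4 arrays) for genes tested in both, with 5 lists coloured and a dashed line of equal differences. Muscle and mesothelial genes lie along the line, and the hair shaft, keratin-associated protein and inner root sheath genes lie above it. Plotted differences are measured ones, also where 1 tissue was not above background.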

How the data were processed

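RNA of wild-type skin and epididymal fat was labelled with Cy3 and hybridised to single-colour Agilent arrays; the deposited scanner files hold a processed signal intensity per spot, background-corrected by Feature Extraction 10.7.3.1 per the file headers. The authors' deposited value table, on a log2 scale, was used as an alternative. The intensity was averaged over spots of a probe, put on the log2 scale and reduced by the 75th percentile of its array. Control spots and outliers were left out. The probe with the highest mean stood for a gene. Genes well above background on at least 3 of 6 arrays were tested with limma 3.58.1 in R 4.3.3, with Benjamini-Hochberg adjusted p below 0.05 as the call.

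On simulated data for 14570 genes, calls were made for 27.7% of 65 genes changed 2-fold (log2 change 1). They were made for 76.4% of 72 genes at log2 2 and 88.9% of 63 at log2 4. Noise was drawn independently for each array, and far fewer genes were changed than were called in the real comparison. These shares therefore do not give the recovery in that comparison. Gene lists and the choice of arrays were made with earlier results of these data known. Named genes were the 15 largest differences and 5 smallest p-values in each direction, 12 fixed markers, list members, and up to 6 genes called in opposite directions in wild type and knockout. Deviations from the group mean were not correlated between skin and fat arrays with the same replicate number (r = -0.08 for number 1 and for number 3). This cannot show whether such arrays came from 1 mouse. Alternatives covered background correction, scaling, filters, probes, slides, and leaving out arrays.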

Additional observations from a re-analysis of the deposited data

Results flagged for a closer look

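The file deposited as fat wild type 2, which was in no comparison, carried a keratinocyte signal above that of the other fat arrays: the mean level of the basal keratinocyte genes was 3.55 and that of the suprabasal and cornified envelope genes 4.15 (log2 signal minus the 75th percentile). Its signals correlated with the skin arrays at 0.902 to 0.928. Krt14 on skin knockout 1, at 9.25, was far from the other 3 knockout skin arrays. Of the 24 groups of 4 samples that were checked in this way, chance picks out about 1 in 20.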

How the results depend on the processing

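The counts of genes higher and lower in skin were 3819 and 4160, and 2928 and 2787 at 2-fold or more. With any 1 wild-type array left out they ranged from 3063 to 4057, 2825 to 5276, 2635 to 3121 and 2322 to 3002. Adding the file deposited as fat wild type 2 left 269, 690, 267 and 685. A test against a 2-fold change called 1665 higher and 973 lower. Requiring detection on all 6 arrays, which tests fewer genes, left 2765 lower, 1852 higher by 2-fold and 1382 lower by 2-fold. With no filter 4975 were higher by 2-fold. Lower genes at 2-fold numbered 1664 with normexp background correction and 1847 in the authors' value table, and the cause was not tested. The share of calls that were higher was 47.9%, against 60.8% with no filter. The median of all genes was -0.12, and -0.24 after quantile normalization, 0.02 in the authors' value table and 0.00 with normexp. With a replicate block, which rests on the 2 shared replicate numbers, 2810 were higher and 2825 lower, and 65.0% of the calls were kept. Whether those numbers mark shared mice is not known. Calls shared with the knockout arrays numbered 6520, and 6082 to 6605 with any 1 knockout array left out. Among named genes, 4 changed sign under an alternative: Npy was 0.29 with normexp, Cidec 0.0846 with the file deposited as fat wild type 2, and Fabp4 0.00569 with 20 arrays and slide as a block. Ighm was 0.194 with that file, 0.0776 with the replicate block, and between -0.267 and 0.0232 with fat wild type 1 or 4 left out. Small changes are limited by the 3 arrays a group and, in skin, by the lower signal over background.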
